A study of Mus musculus with 14 samples.

Results

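Cdk4, Cdk6 and the D-type cyclins Ccnd1, Ccnd2 and Ccnd3 were followed as a group of 5 genes, taken by symbol from the 50686 genes counted in each of 14 RNA-seq libraries. Each symbol matched 1 gene, and all 5 genes were tested. The libraries came from HPC-LSK cells, mouse haematopoietic progenitor lines modelled on the Lin-, Sca-1+, Kit+ (LSK) fraction of bone marrow, on a C57BL/6N strain background. Lines of this kind are derived by introducing the LIM-homeobox factor Lhx2, whose level was 1250 to 4380 CPM (counts scaled to library sizes with TMM factors, as for all CPM here) in all 14 libraries. There were 4 libraries of untransformed wild-type (WT) lines, 3 of untransformed Cdk6 knockout (KO) lines, 3 of WT lines transformed with BCR-ABL p210 and 4 of KO lines transformed with BCR-ABL p210. The medium of untransformed lines contained IL-6 at 12.5 ng/ml and SCF at 2%, whereas by the protocol p210 lines received neither cytokine, so that transformation and medium cannot be told apart. The letters SCF in the p210 descriptions are not explained by the labels. The labels give neither the exons removed in the Cdk6 allele nor whether replicates were separate derivations, and p-values cover only the spread among these samples, which may be technical.

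D-type cyclins bind Cdk4 or Cdk6, and the active complexes phosphorylate the retinoblastoma family, which frees E2F factors to switch on genes of DNA replication. Cdk4 and Cdk6 are close relatives that take the same cyclin partners, and either can serve for the other in many cell types. Cdk6 is the more prominent kinase of blood progenitors, while Ccnd1 is prominent in epithelial and mesenchymal cells and Ccnd2 and Ccnd3 in blood cells. The comparisons ask whether Cdk4 or any D-type cyclin stood higher where Cdk6 was removed, and how the set differed between p210 and untransformed lines.

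The genes of the group are related in sequence, and the longest stretches they share are shown because they decide whether 50-base reads can be given to the right gene. In GENCODE M21 coding sequences, the longest run common to Cdk4 (909 coding bases) and Cdk6 (978) was 20 bases, at positions 463 to 482 of Cdk4 and 478 to 497 of Cdk6. The longest run common to Ccnd1 and Ccnd2 was also 20 bases. Capitals mark the identical run and small letters the bases beside it, 5′ to 3′ on the coding strand.
Cdk4: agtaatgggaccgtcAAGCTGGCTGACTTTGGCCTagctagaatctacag
Cdk6: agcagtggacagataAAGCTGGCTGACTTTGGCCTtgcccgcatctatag
Ccnd1: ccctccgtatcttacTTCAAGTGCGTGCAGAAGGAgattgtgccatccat
Ccnd2: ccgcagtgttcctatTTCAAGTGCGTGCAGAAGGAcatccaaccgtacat
No window of 50 bases was shared between any of the 5 genes. Windows shared with a gene outside the group on the same strand made up 0.46% of Cdk4, 0.924% of Cdk6, 1.99% of Ccnd3 and none of Ccnd1 or Ccnd2, of which 143 windows of Ccnd3 matched the pseudogene Ccnd3-ps. Every annotated gene that overlaps one of the 5 lies on the opposite strand, and reads were counted by strand.

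Per length, in TPM, Cdk4 was the highest of the 5 in every library. The stretch before its start differed from those of Cdk6 and Ccnd3 in its count of the E-box CACGTG, the motif of MYC and related factors. No such stretch of Ccnd1 or Ccnd2 was at hand. The 250 bases before the RefSeq start of Cdk4 on the plus strand (GRCm38.p6, chr10:127063285-127063534) hold 4 E-boxes, shown in capitals, which begin 172, 118, 98 and 11 bases before the start.
Cdk4: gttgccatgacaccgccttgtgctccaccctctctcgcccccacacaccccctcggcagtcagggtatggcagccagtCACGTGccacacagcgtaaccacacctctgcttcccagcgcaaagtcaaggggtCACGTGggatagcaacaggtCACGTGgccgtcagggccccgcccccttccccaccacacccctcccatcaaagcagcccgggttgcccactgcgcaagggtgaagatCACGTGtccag
Of 32851 mouse promoter windows of this length, 6.02% hold at least 1 such motif and 7 windows (0.021%) hold 4 or more. The E-box reads the same on both strands, and no match in the Cdk4 window overlaps another. The Cdk6 window holds 1, and both Ccnd3 windows hold none. Neither TTCNNNGAA (7.02% of windows) nor TTTGGCGC or TTTCCCGC (1.3%), searched on both strands, occurs in the Cdk4, Cdk6 or Ccnd3 windows. Myc, counted in the same libraries, passed the test in none of the 4 comparisons and ranged from 76.2 to 387 CPM in WT p210 libraries. Whether the E-boxes or Myc bear on the level of Cdk4 was not tested.

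Total counts per library ran from 20270348 to 50303271. Sums of 6 progenitor markers were 1520 to 2470 CPM in WT untransformed, 1840 to 2230 CPM in KO untransformed, 1100 to 1490 CPM in WT p210 and 1090 to 1890 CPM in KO p210 libraries. Of these 6, Kit stood at 431 ± 51.4 CPM (SD, n = 4) in WT untransformed and 259 ± 15.2 CPM (n = 3) in KO untransformed libraries, and at 45.5 ± 12.2 CPM (n = 3) in WT p210 and 31.4 ± 11.9 CPM (n = 4) in KO p210 libraries. Of the 6, only Ptprc passed between the untransformed genotypes, beside 15.2% of all genes, and it was higher in KO (551 ± 63.2 against 322 ± 50.1 CPM, adjusted p = 0.0158). Mean Cd34 was 968, 957, 596 and 640 CPM and mean Cd48 136, 174, 232 and 232 CPM in the same order of groups. Ly6a, which encodes Sca-1, was at 13.6 to 112 CPM in WT untransformed, 26.4 to 42.2 CPM in KO untransformed, 10.3 to 13.9 CPM in WT p210 and 0.553 to 29.1 CPM in KO p210 libraries, and passed the test in none of the 4 comparisons. Summed levels of 11 neutrophil and monocyte markers were 523 to 10000 CPM in WT untransformed, 22300 to 31000 CPM in KO untransformed, 1440 to 6050 CPM in WT p210 and 6490 to 20400 CPM in KO p210 libraries, with Ly6g at 0 in all groups but KO p210 (at most 0.0772 CPM). Sums of 9 erythroid and megakaryocyte markers were 2180 to 5700, 956 to 1560, 1540 to 2660 and 1230 to 1830 CPM in the same order, without overlap between the untransformed genotypes. Sums of 7 mast cell and basophil markers were 1680 to 5630, 2820 to 3140, 3960 to 13200 and 6980 to 10200 CPM. With p210 in WT lines 2 of the 7 rose and 2 fell, beside 21.9% and 17.6% of all genes, with a median log2 fold change of -0.71. Mcpt8, a basophil protease, rose (log2 fold change 6.05 ± 0.80, adjusted p = 0.000185), and Kit, also on this list, fell (-3.25 ± 0.31, adjusted p = 2.99e-05). Sums of 8 lymphoid markers were 0.522 to 2.53, 1.57 to 2.41, 17.5 to 67.8 and 0.351 to 1630 CPM, with Cd3e, Cd8a and Ms4a1 at 0 in all libraries and Thy1, a surface antigen, at 0.273 to 1630 CPM in KO p210 libraries. Sums of 6 stromal and endothelial markers were 188 to 471, 381 to 456, 556 to 764 and 597 to 828 CPM. These sums were mostly Pecam1, at means of 253, 350, 617 and 659 CPM, with Pdgfrb at 85.6, 64.4, 49.1 and 32 CPM. Col1a1, Col1a2, Cdh5 and Cxcl12 had group means of at most 0.749 CPM. The part of all these markers in the differences of the 5 genes was not tested. In bulk libraries, fewer cells of a type and less RNA per cell cannot be told apart. Lrmda parted the genotypes in both states of these same data (log2 fold change 4.21 ± 0.19 and 3.43 ± 0.21), so it is no independent check of the labels. It was at 1.08 to 1.93 CPM in all 7 WT and 15.1 to 25.6 CPM in all 7 KO libraries. The library labelled KO p210 replicate 2 lay within the WT p210 range in Cdk6, at 578 CPM, while some Cdk6 reads remained in every KO library. Its Lrmda, at 15.1 CPM, lay with the KO libraries, which does not settle its identity.

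Cdk4 did not stand higher in KO than in WT lines in either state. In untransformed lines Cdk6 fell to 0.227-fold of WT, Ccnd1 and Ccnd2 lay above WT in every KO library without passing the test, and Cdk4 lay at 0.926-fold of WT. Between the p210 genotypes none of the 5 passed with edgeR, DESeq2 or limma-voom, and 2, Cdk6 and Ccnd3, had an unadjusted p under 0.05 in edgeR. With p210, Ccnd2 rose about as much in WT (2.15-fold) as in KO lines (1.88-fold), Cdk4 fell in both genotypes, Cdk6 fell in WT lines and Ccnd1 fell in KO lines. Each adjusted p is from edgeR's quasi-likelihood test with Benjamini-Hochberg adjustment over 14512 genes.

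**Figure D1:**
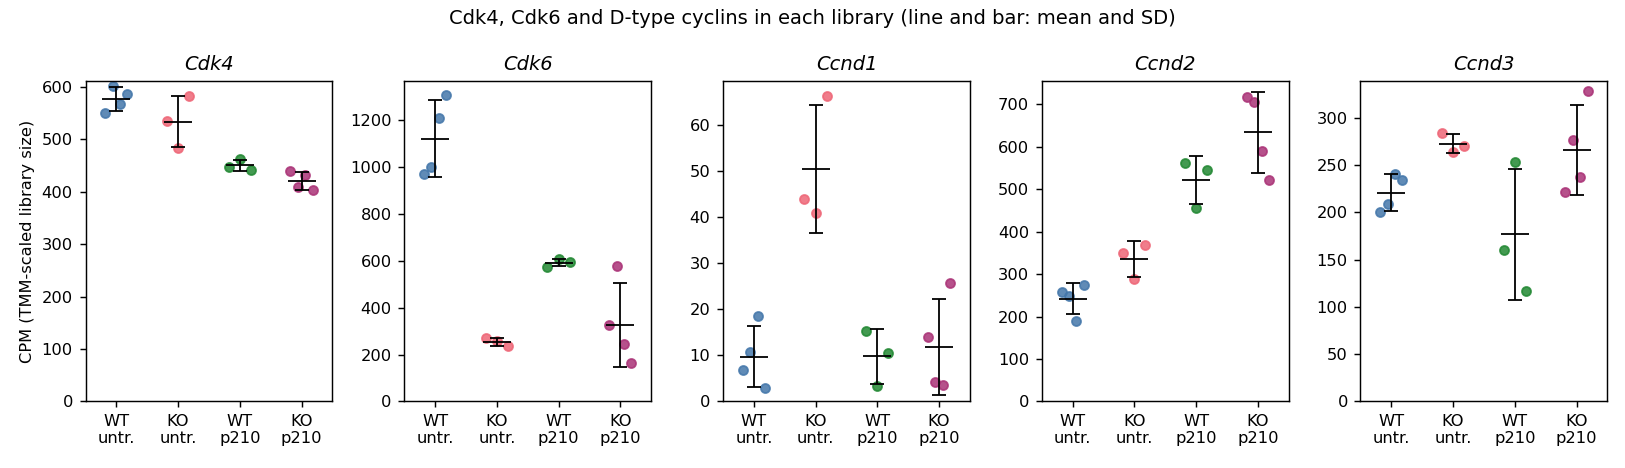
CPM of Cdk4, Cdk6, Ccnd1, Ccnd2 and Ccnd3 (y axis, from 0, a scale per gene) in each library of the 4 groups (x axis), with the group mean and SD. Cdk4 keeps within 403 to 601 CPM in all libraries, while 1 KO p210 library lies with the WT p210 libraries for Cdk6, at 578 CPM.

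Cdk6 (ENSMUSG00000040274.11, chromosome 5, 3341485 to 3531008, plus strand, GRCm38), the kinase targeted in the knockout, was read at 970, 999, 1210 and 1310 CPM in WT untransformed replicates 1 to 4 and at 271, 258 and 236 CPM in KO untransformed replicates 1 to 3. The groups did not overlap, and the fitted log2 fold change came to -2.14 ± 0.34 (SE, adjusted p = 0.00573). Cdk6 was the only 1 of the 5 to pass in this comparison, beside 15.2% of all genes tested (8.73% higher and 6.5% lower). Reads that remained in KO lines amounted to 0.227-fold of the WT level (95% interval 0.137 to 0.376), and gene counts do not show which exons they come from.

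In p210 lines the WT libraries held 576, 606 and 597 CPM of Cdk6 and the libraries labelled KO held 326, 578, 245 and 163 CPM in replicates 1 to 4. The groups overlapped through KO p210 replicate 2, and the log2 fold change of -0.86 ± 0.31 did not pass (adjusted p = 0.147), beside 4.44% of all genes called (0.882% higher and 3.56% lower). Without that library the difference was -1.28 and passed (adjusted p = 0.0143). The library was singled out by its own Cdk6 value, so that call adds no support. With any 1 library left out the log2 fold change ran from -1.28 to -0.63.

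Against untransformed lines, Cdk6 was lower in p210 lines of the WT genotype, at 593 ± 15.6 CPM (n = 3) against 1120 ± 163 CPM (n = 4), a log2 fold change of -0.92 ± 0.32 (adjusted p = 0.0386). The 3 WT lines read in both states fell by 0.75, 0.72 and 1.02 on the log2 scale. The call was lost without WT untransformed replicate 3 or 4 or any 1 WT p210 library (adjusted p = 0.069 to adjusted p = 0.0868). It was also lost with the line as a replicate block (log2 fold change -0.83, adjusted p = 0.0921) and with the number of sequencing runs as a term (-0.77, adjusted p = 0.163). In KO lines the remaining Cdk6 reads went from 255 ± 17.6 to 328 ± 179 CPM (log2 fold change 0.36 ± 0.32, adjusted p = 0.394), with line changes of 0.27, 1.17 and -0.54. The difference between these 2 changes, tested as the interaction, was 1.28 ± 0.45 and did not pass (adjusted p = 0.272), where 0.0345% of all genes did.

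Cdk4 (ENSMUSG00000006728.12, chromosome 10, 127063534 to 127067920, plus strand), the kinase that can stand in for Cdk6, was read at 550, 601, 567 and 587 CPM in WT untransformed and at 535, 484 and 582 CPM in KO untransformed libraries. The KO values lay within or below the WT range, and its log2 fold change came to -0.11 ± 0.07 (adjusted p = 0.295). The 95% interval of -0.26 to 0.04 corresponds to 0.835-fold to 1.03-fold, so that an increase of Cdk4 mRNA beyond 1.03-fold lies outside it. In p210 lines the WT libraries held 447, 462 and 441 CPM and the KO libraries 440, 409, 431 and 403 CPM. Every KO p210 library lay below every WT p210 library, a pattern held by 13.3% of all genes in either direction, and the log2 fold change of -0.10 ± 0.07 did not pass (adjusted p = 0.479, interval 0.841-fold to 1.04-fold). Over 27 alternatives the log2 fold change ran from -0.21 to -0.02 in untransformed and from -0.19 to -0.08 in p210 lines, and none was called. The value of -0.21 includes scaling by library size alone, which moved the median of all genes to -0.12.

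Cdk4 fell with p210 in both genotypes, by 0.36 ± 0.07 in WT (adjusted p = 0.00197) and by 0.34 ± 0.07 in KO lines (adjusted p = 0.00262) on the log2 scale. All 6 lines read in both states were lower in p210, by 0.24 to 0.53. The groups did not overlap in either genotype, a pattern held by 45% of all genes in WT and 46.1% in KO lines, and 39.5% and 37.2% of all genes passed the test. The changes in WT and KO lines differed by 0.01 (adjusted p = 0.968).

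**Figure D2:**
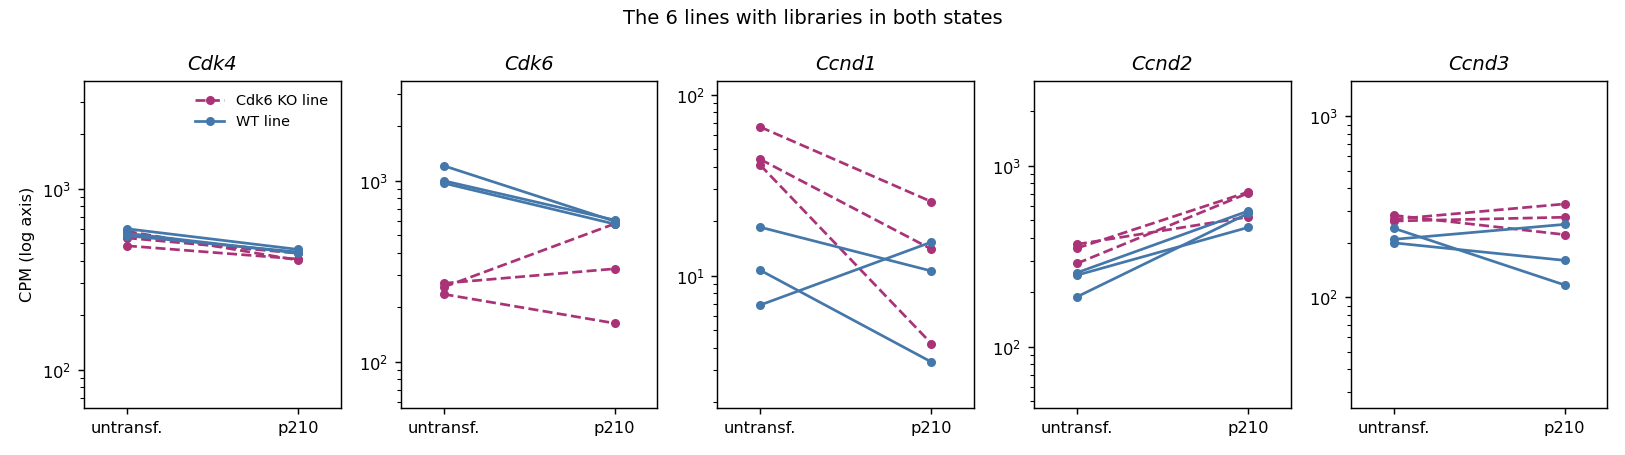
CPM (log axis, spanning the same number of folds in every panel) of each gene in the untransformed and p210 library of the 6 lines read in both states, WT lines solid and KO lines dashed. Ccnd2 goes up and Cdk4 down in all 6 lines, while Ccnd1 falls in the 3 KO lines.

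Ccnd1 (ENSMUSG00000070348.5, chromosome 7, 144929931 to 144939925, minus strand), the cyclin D1 gene, was the lowest of the 5 per length in all 14 libraries. WT untransformed replicates 1 to 4 held 6.87, 10.7, 18.5 and 2.84 CPM, and KO untransformed replicates 1 to 3 held 43.9, 40.8 and 66.2 CPM. Every KO library lay above every WT library, and the groups of 39.7% of all genes likewise did not overlap. The log2 fold change of 2.37 ± 0.75 (5.16-fold, interval 1.65 to 16.1) did not pass (adjusted p = 0.0538). It passed with DESeq2 (log2 fold change 2.35, adjusted p = 0.00783), with limma-voom (2.65, adjusted p = 0.0138) and with the 7 untransformed libraries alone (2.37, adjusted p = 0.0295). The summed neutrophil and monocyte markers and the erythroid and megakaryocyte markers given above also did not overlap between these 2 groups.

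In p210 lines Ccnd1 was at 15.3, 3.33 and 10.6 CPM in WT and at 14, 4.21, 3.55 and 25.6 CPM in KO libraries. The groups overlapped throughout, with a log2 fold change of 0.28 ± 0.76 (adjusted p = 0.883). Ccnd1 fell with p210 in KO lines, with a log2 fold change of -2.09 ± 0.75 (adjusted p = 0.0457), and by 1.66, 3.28 and 1.37 in the 3 lines. This call was lost with the line as a replicate block (-2.07, adjusted p = 0.0614) and in 16 of 28 alternatives in all, among them those without any 1 KO untransformed library and without KO p210 replicate 1, 2 or 3 (-2.22 to -1.79, adjusted p = 0.0728 to adjusted p = 0.13) and without WT untransformed replicate 1 or 2 or WT p210 replicate 3. In WT lines the fitted change was 0.00 ± 0.75 (adjusted p = 0.996), with lines at 1.15, -1.69 and -0.81, and the interaction of -2.09 ± 1.05 did not pass (adjusted p = 0.392).

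Ccnd2 (ENSMUSG00000000184.12, chromosome 6, 127125162 to 127152193, minus strand), the cyclin D2 gene, was read at 257, 249, 189 and 274 CPM in WT untransformed and at 563, 457 and 546 CPM in WT p210 libraries. It was read at 351, 289 and 369 CPM in KO untransformed and at 717, 707, 590 and 522 CPM in KO p210 libraries. The p210 libraries lay above the untransformed libraries of the same genotype without overlap. Ccnd2 rose by 1.11 ± 0.15 in WT (adjusted p = 0.000198) and by 0.91 ± 0.15 in KO lines (adjusted p = 0.000892) on the log2 scale, and it rose in all 6 lines, by 0.50 to 1.53. It was the only 1 of the 5 to rise with p210, where 21.9% of all genes rose in WT and 19.2% in KO lines.

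Between genotypes, Ccnd2 was higher in every KO than in every WT untransformed library, with a log2 fold change of 0.47 ± 0.15 (1.39-fold, interval 1.11 to 1.74) that did not pass (adjusted p = 0.0515). DESeq2 gave 0.46 (adjusted p = 0.0201) and limma-voom 0.48 (adjusted p = 0.0441). In p210 lines the KO and WT ranges overlapped, with a log2 fold change of 0.28 ± 0.15 (adjusted p = 0.33). The interaction was -0.19 (adjusted p = 0.709).

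Ccnd3 (ENSMUSG00000034165.16, chromosome 17, 47505051 to 47599691, plus strand), the cyclin D3 gene, was read at 200, 209, 241 and 234 CPM in WT untransformed and at 284, 264 and 270 CPM in KO untransformed libraries. These groups did not overlap either, yet the log2 fold change of 0.30 ± 0.21 did not pass (adjusted p = 0.34). WT p210 libraries held 160, 253 and 117 CPM and KO p210 libraries 222, 277, 237 and 328 CPM. Of all groups, WT p210 spread the most for this gene, with replicate 2 inside the KO range. The log2 fold change between the p210 groups was 0.59 ± 0.21 (adjusted p = 0.148), and without WT p210 replicate 2 it was 0.94 and passed (adjusted p = 0.0114). Against untransformed libraries Ccnd3 differed by -0.32 ± 0.21 in WT (adjusted p = 0.252) and by -0.04 ± 0.21 in KO lines (adjusted p = 0.908). Without WT p210 replicate 2 the WT change was -0.67 (adjusted p = 0.0105). That replicate was singled out by its own Ccnd3 value, so the calls made without it add no support.

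**Figure D3:**
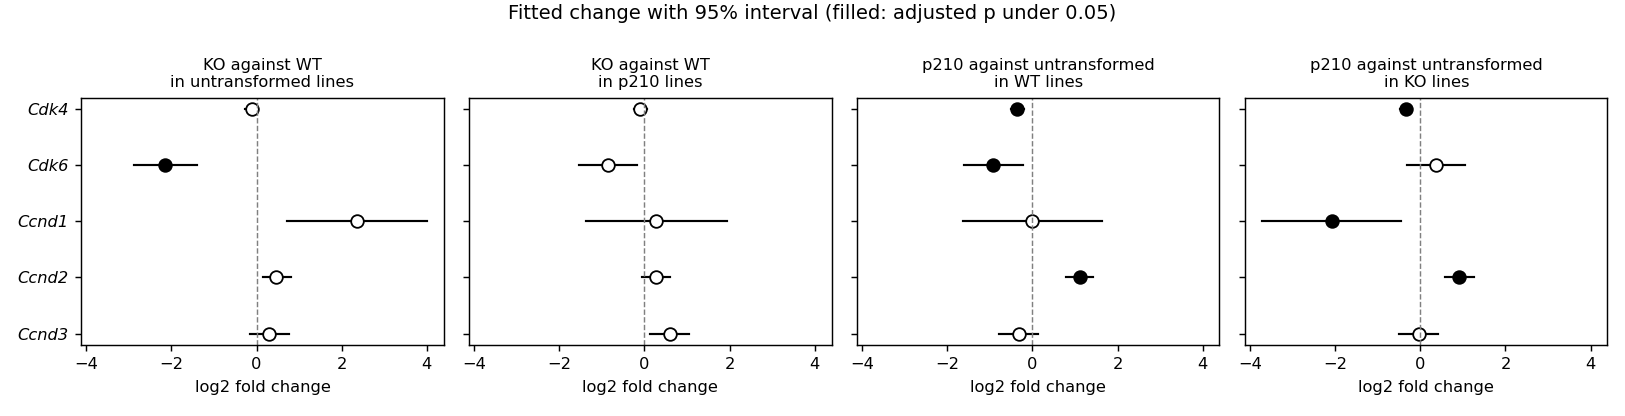
Fitted log2 fold change (x axis) of each gene (y axis) in the 4 comparisons between groups, with its 95% interval, filled where the adjusted p was under 0.05. Cdk4 has the narrowest intervals and Ccnd1 the widest, and 1 gene is filled for KO against WT in untransformed lines, none in p210 lines and 3 for p210 in each genotype.

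The order of the 4 groups differed from gene to gene. Cdk4 and Cdk6 had their highest mean in WT untransformed lines, Ccnd1 and Ccnd3 in KO untransformed lines and Ccnd2 in KO p210 lines. For Cdk6, WT p210 followed without overlap, and the next 2 neighbours, KO p210 and KO untransformed, overlapped with the group before them. For Ccnd1, the 3 groups below KO untransformed overlapped one another, at means of 9.71 to 11.8 CPM. For Ccnd2 the order was KO p210, WT p210, KO untransformed and WT untransformed, and only the p210 groups overlapped. For Ccnd3 each neighbour overlapped the next.

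Balance between the kinases and their cyclins was described from the deposited TPM values, which are per length. The length counts all annotated exons of a gene, 3249 bases for Cdk4, 13989 for Cdk6, 4709 for Ccnd1, 9409 for Ccnd2 and 8775 for Ccnd3. Which transcripts these cells use was not measured, so sums, shares and ratios across genes depend on the annotation. Summed D-type cyclins were 197 ± 8.56 TPM in WT untransformed (n = 4), 255 ± 29.8 TPM in KO untransformed (n = 3), 260 ± 24.1 TPM in WT p210 (n = 3) and 302 ± 21.6 TPM in KO p210 libraries (n = 4). Summed Cdk4 and Cdk6 ran the other way, at 955 ± 57.5, 599 ± 60.1, 605 ± 23.9 and 462 ± 50.7 TPM in the same order. The ratio of the D-type cyclin sum to the kinase sum was 0.206 ± 0.00777, 0.425 ± 0.00812, 0.429 ± 0.0225 and 0.657 ± 0.0505. No KO library overlapped a WT library of its state in this ratio, and no p210 library overlapped an untransformed library of its genotype.

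Each of these 4 differences in the ratio had p = 0.0286 in an exact two-sided permutation test, the smallest that 35 arrangements of 3 and 4 libraries allow, and an adjusted p of 0.0471 over 28 tests. That adjusted value rests on 17 of the 28 tests reaching the smallest p. On TMM-scaled CPM per kilobase, where 15 tests reached it, the ratio itself is the same and its adjusted p was 0.0533, so the call does not hold. Since Cdk6 is in the denominator, its own fall enters the ratio of KO to WT lines. With Cdk4 alone as the denominator, a measure added without a test, the ratio was 0.299 ± 0.0123, 0.472 ± 0.00666, 0.561 ± 0.0269 and 0.774 ± 0.0712, with the same order of groups. The values were 0.284 to 0.313, 0.466 to 0.479, 0.542 to 0.592 and 0.682 to 0.854, so that no group overlapped another.

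**Figure D4:**
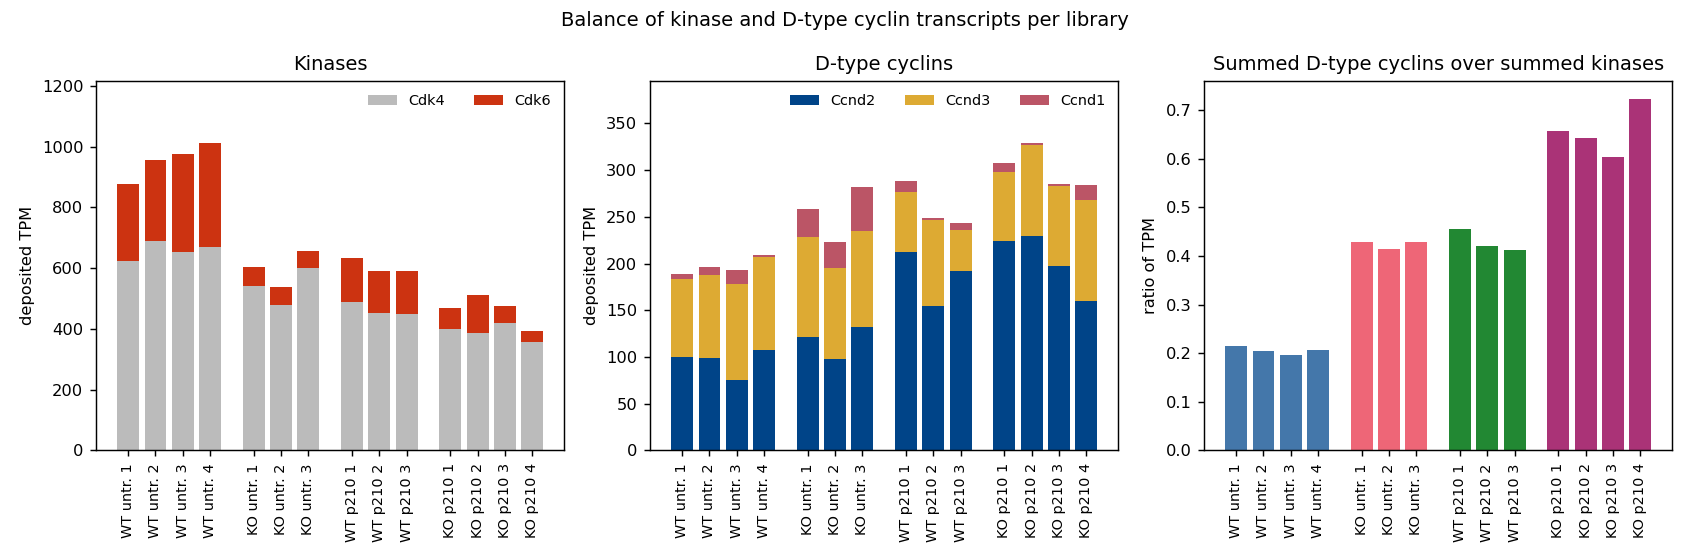
Deposited TPM of Cdk4 and Cdk6 stacked (left), of the 3 D-type cyclins stacked (middle) and the ratio of the cyclin sum to the kinase sum (right) in each of the 14 libraries (x axis), all from 0. The kinase bars are tallest in WT untransformed libraries at 877 TPM or more, and the ratio is highest in the 4 KO p210 libraries, at 0.603 to 0.724.

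Cdk6 made up 31.0% ± 3.04 of kinase TPM in WT untransformed, 8.6% to 11% in the 3 KO untransformed, 23.4% ± 0.455 in WT p210 and 14.9% ± 6.98 in KO p210 libraries. Its share was lower in KO than in WT untransformed libraries and lower in WT p210 than in WT untransformed libraries without overlap (exact permutation p = 0.0286 for each, adjusted p = 0.0471, which was lost on TMM-scaled CPM per kilobase). In p210 lines KO replicate 2, at 24.7%, lay above the WT libraries, and the difference did not pass (adjusted p = 0.182). In TPM, Cdk4 stood above Cdk6 in every library, by 1.94 to 2.59 times in WT untransformed and 8.1 to 10.6 times in KO untransformed libraries. It did so by 3.19 to 3.34 times in WT p210 and 3.04 to 10.7 times in KO p210 libraries. In CPM, which is not per length, Cdk6 stood above Cdk4 in WT libraries. It was at 970 to 1310 against 550 to 601 CPM in WT untransformed and at 576 to 606 against 441 to 462 CPM in WT p210 libraries. In KO untransformed libraries Cdk6 was the lower in CPM too, at 236 to 271 against 484 to 582 CPM. The ranges overlapped in KO p210 libraries, at 163 to 578 against 403 to 440 CPM.

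Among the cyclins, Ccnd2 and Ccnd3 were near parity in untransformed lines, and Ccnd2 led in p210 lines. Ccnd2 was 48.5% of D-type cyclin TPM in WT untransformed and 46.0% in KO untransformed libraries, against 71.5% in WT p210 and 67.1% in KO p210 libraries. The ratio of Ccnd2 to Ccnd3 was 0.728 to 1.2 in WT untransformed and 1.02 to 1.28 in KO untransformed libraries, and 1.69 to 4.33 and 1.48 to 3.01 in WT and KO p210 libraries. Ccnd1 was 3.97% ± 2.79 of the sum in WT untransformed, 13.7% ± 2.65 in KO untransformed, 2.64% ± 1.58 in WT p210 and 2.51% ± 2.22 in KO p210 libraries. By rank of TPM within a library, Cdk6 came next after Cdk4 in all 4 WT untransformed libraries and below Ccnd2 and Ccnd3 in all 3 KO untransformed libraries. Ccnd2 came next after Cdk4 in all KO untransformed and all p210 libraries.

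The 3 genes nearest to each member by the root mean square difference of centred log2 CPM over the 14 libraries, among 9797 genes, give a sense of how common each profile is. Cdk4 lay closest to Sf3b4 and Snrnp40 (0.06 each) and Drosha (0.07), which act in RNA splicing and microRNA processing, against a spread of its own of 0.20. Ccnd3 lay closest to Scamp1 (0.13), Bet1 (0.19) and Hibch (0.21), with an own spread of 0.36. For Ccnd2 they were Hyal2 (0.18), Tepsin (0.19) and Fndc3a (0.19), with an own spread of 0.59. Cdk6 had no near neighbour, with Xrcc5 at 0.54, Map7 at 0.56 and Pbx3 at 0.57 against an own spread of 0.95. Ccnd1 had none either, with Rab34 at 0.89, Plekha1 at 0.90 and Nrp1 at 0.92 against 1.42.

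Other genes of the pathway were described from lists. Among 7 CDK inhibitors, Cdkn2c, an INK4 protein that binds Cdk4 and Cdk6, was lower in KO than in WT lines in both states. It stood at 37.6 ± 6.3 CPM in WT untransformed and 13.7 ± 1.76 CPM in KO untransformed libraries (log2 fold change -1.46 ± 0.22, adjusted p = 0.00519), and at 12.9 ± 2.01 and 4.95 ± 1.48 CPM in WT and KO p210 libraries (-1.38 ± 0.21, adjusted p = 0.0051). Cdkn1c, a CIP/KIP inhibitor, was higher in KO untransformed lines, at 15.5 ± 12.2 against 1.57 ± 1.33 CPM (3.30 ± 0.87, adjusted p = 0.0287), a call lost without WT untransformed replicate 3. With p210, 4 of the 7 rose and 2 fell in WT lines and 3 rose and 2 fell in KO lines, beside 21.9% and 17.6% of all genes in WT and 19.2% and 18% in KO lines. Cdkn2b, another INK4 gene, rose from 0.633 ± 0.299 to 25.6 ± 0.392 CPM in WT lines (5.33 ± 0.49, adjusted p = 2.18e-05). Cdkn2a, whose counts join the p16 and p19Arf transcripts, rose from 2.08 ± 1.37 to 68.9 ± 17 CPM in WT lines (5.06 ± 0.69, adjusted p = 0.000219). In KO lines it rose to 46.6 ± 14.4 CPM from 0.537 ± 0.61 CPM (6.24 ± 0.83, adjusted p = 0.000236). Cdkn1a, which encodes p21, rose in WT lines from 131 ± 27.7 to 445 ± 7.23 CPM (1.77 ± 0.25, adjusted p = 0.000247).

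Downstream of the kinases, 15 of 18 E2F target genes of S phase entry were lower and none higher in KO than in WT untransformed lines, beside 6.5% of all genes lower, with a median log2 fold change of -0.54 beside -0.02 for all genes tested. Lig1, the ligase that joins replicated DNA, fell by 0.77 ± 0.10 (adjusted p = 0.00271). Pole, the leading-strand polymerase, fell by 0.55 ± 0.07 (adjusted p = 0.003). In p210 lines 8 of 18 were lower in KO and none higher (median -0.33 beside 0 for all genes, of which 3.56% were lower), with 3 of 18 lower without KO p210 replicate 2 and 4 of 18 with limma-voom. With p210, 15 of 18 fell and none rose in WT lines (median -0.68) and likewise 15 of 18 in KO lines (median -0.52), where 17.6% and 18% of all genes fell. Pola1, a subunit of the priming polymerase, fell from 262 ± 19.3 to 114 ± 1.66 CPM in WT lines (log2 fold change -1.21 ± 0.09, adjusted p = 7.28e-06).

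Of 13 pocket proteins and E2F factors, 5 were lower and none higher in KO untransformed lines (6.5% of all genes lower), among them E2f7, a repressor (log2 fold change -1.13 ± 0.14, adjusted p = 0.00282), and Rbl1, which encodes p107 (-0.48 ± 0.07, adjusted p = 0.00502). Without WT untransformed replicate 3 this count was 2. In p210 lines 1 of 13, Rbl1, was lower in KO (-0.41 ± 0.07, adjusted p = 0.00816), beside 3.56% of all genes lower. With p210, 1 rose and 4 fell in WT lines and 3 rose and 3 fell in KO lines, the latter near the shares of all genes (19.2% and 18%), with E2f1 falling in both (-0.54 ± 0.09, adjusted p = 0.000821, and -0.40 ± 0.09, adjusted p = 0.00482).

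Of 7 other cell cycle CDKs and cyclins, 5 were lower in KO untransformed lines and none higher (6.5% and 8.73% of all genes), led by Ccna2, the cyclin of S phase (-0.78 ± 0.14, adjusted p = 0.00773). None of the 7 passed between the p210 genotypes with edgeR, DESeq2 or limma-voom, or at an unadjusted p under 0.05, where 4.44% of all genes passed in edgeR. Ccna2 also fell with p210 in WT lines (-0.79 ± 0.14, adjusted p = 0.00112), where 4 fell and none rose, beside 17.6% and 21.9% of all genes (2 fell with the line as a replicate block). In KO lines 2 rose and none fell, beside 19.2% and 18% of all genes (1 rose with the replicate block, and 1 without KO p210 replicate 2), and these were Cdk2, the kinase that acts after Cdk4 and Cdk6 (0.77 ± 0.14, adjusted p = 0.0013), and Ccnb1 (0.41 ± 0.14, adjusted p = 0.0352). Of 8 proliferation markers, 2 were lower and none higher in KO untransformed lines, beside 6.5% and 8.73% of all genes. None passed between the p210 genotypes, beside 4.44% of all genes. With p210, 4 fell and 1 rose in WT lines, beside 17.6% and 21.9% of all genes. In KO lines none fell and 2 rose, beside 18% and 19.2% of all genes.

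Of 12 regulators of D-type cyclin genes, 1 was higher and 3 lower in KO untransformed lines, beside 8.73% and 6.5% of all genes. Stat5a, a signal transducer known to act on Ccnd2, fell from 152 ± 2.01 to 96.1 ± 12.7 CPM (log2 fold change -0.66 ± 0.12, adjusted p = 0.00907). Fos, an AP-1 subunit known to act on Ccnd1, rose from 8.88 ± 3.12 to 36.4 ± 19.7 CPM (2.04 ± 0.48, adjusted p = 0.0191). Ctnnb1 was lower in KO (-0.31 ± 0.09, adjusted p = 0.0403). Without WT untransformed replicate 3, 1 was higher and 1 lower. None of the 12 passed between the p210 genotypes in edgeR, beside 4.44% of all genes, and 4 had an unadjusted p under 0.05. With limma-voom none passed, and with DESeq2 3 did. With p210, 7 fell and none rose in WT lines, and 8 fell and 1 rose in KO lines, where 17.6% and 18% of all genes fell. Foxo1, a repressor of D-type cyclin genes, was among those that fell, by 0.84 ± 0.15 in WT (adjusted p = 0.00104) and by 0.95 ± 0.15 in KO lines (adjusted p = 0.000508). Stat5a fell as well, by 0.85 ± 0.12 in WT (adjusted p = 0.000325) and by 0.45 ± 0.12 in KO lines (adjusted p = 0.0129), while Ccnd2 rose. Their part in the changes of the D-type cyclins was not tested.

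Of 9 turnover genes, 1 was higher and 1 lower in KO untransformed lines, beside 8.73% and 6.5% of all genes. Ambra1, a ligase subunit that marks D-type cyclins for destruction, was higher (log2 fold change 0.25 ± 0.06, adjusted p = 0.0195) and Cul4b lower (-0.33 ± 0.09, adjusted p = 0.0261). None passed between the p210 genotypes with any of the 3 tools or at an unadjusted p under 0.05, where 4.44% of all genes passed in edgeR. With p210, 2 rose and 1 fell in WT lines, beside 21.9% and 17.6% of all genes. In KO lines 3 rose and 1 fell, beside 19.2% and 18%. Of 8 activation and assembly genes none passed between genotypes in edgeR, beside 15.2% of all genes in untransformed and 4.44% in p210 lines. Of the 8, 3 in untransformed and 0 in p210 lines had an unadjusted p under 0.05. In untransformed lines 3 of these were lower with DESeq2 and 1 with limma-voom, and in p210 lines none. With p210, 1 of the 8 rose and 3 fell in WT lines, beside 21.9% and 17.6% of all genes. In KO lines 1 rose and 2 fell, beside 19.2% and 18% of all genes. The 1 that rose was Cdk7, the kinase that activates CDKs, by 0.55 ± 0.12 in WT (adjusted p = 0.00332) and by 0.70 ± 0.12 in KO lines (adjusted p = 0.000974). The chaperone Hspa8 fell in both. Mnat1 fell in WT lines (-0.42 ± 0.06, adjusted p = 0.000366) and Ccnh in KO lines (-0.38 ± 0.11, adjusted p = 0.0136). Of 19 atypical cyclins and CDKs, 8 rose and 3 fell with p210 in WT lines and 10 rose and 3 fell in KO lines, where 21.9% and 19.2% of all genes rose and 17.6% and 18% fell, led in both by Ccng1 (1.27 ± 0.13, adjusted p = 3.26e-05, in WT).

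**Figure D5:**
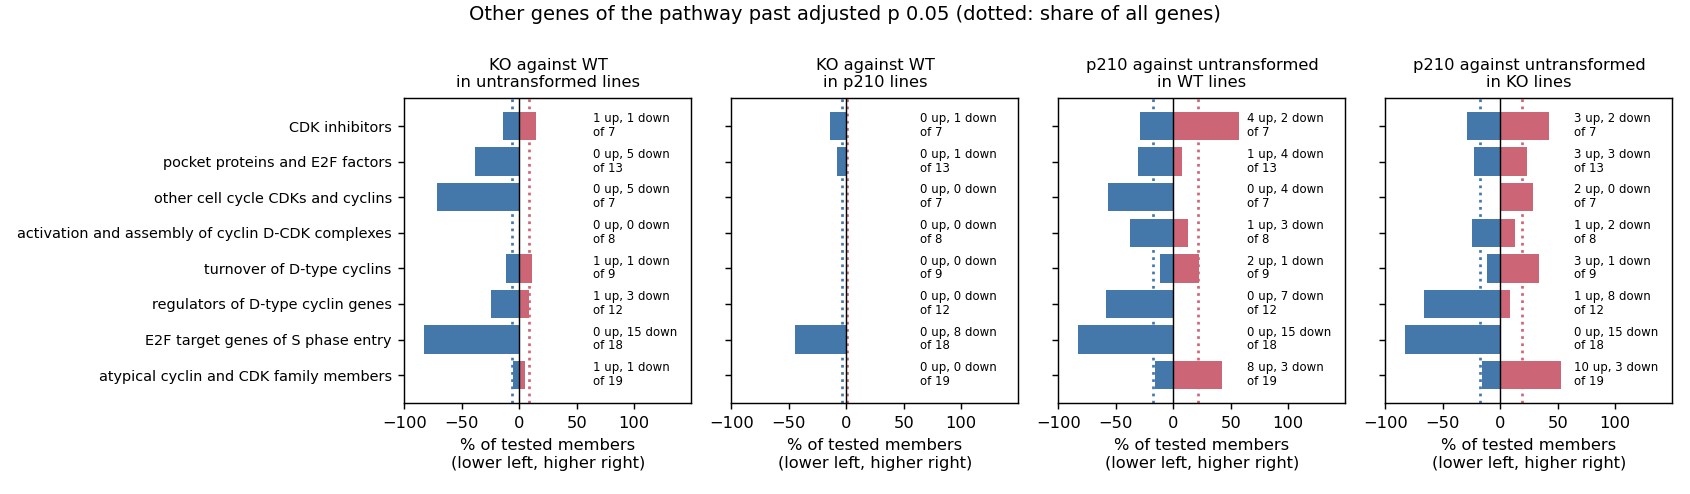
Percent of tested members of each pathway list (y axis) that passed the test, lower to the left and higher to the right of 0 (x axis), in the 4 comparisons, with counts printed and dotted lines for the share of all 14512 genes. E2F target genes reach 15 of 18 lower in 3 comparisons and 8 of 18 in KO against WT p210 lines.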

How the data were processed

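RNA of 14 HPC-LSK libraries was read as 50 bp single ends with the SENSE mRNA-Seq kit, per the labels' protocols. The authors used Trimmomatic and STAR (versions not given in the sources used here) and the GRCm38 build, per the submitters' processing notes. Per the file headers, featureCounts 1.5.1 with reverse-strand counting on GENCODE M13 made the deposited raw counts. TPM values, also deposited by the authors, equal scaled counts over length to within 0.049. Of 50686 genes, 50376 had a symbol in GENCODE M21.

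Counts were tested with edgeR 4.0.16 (R 4.3.3, TMM, robust quasi-likelihood, filterByExpr with minimum count 10 and total 15), in 1 fit of 14 libraries with 5 contrasts and a threshold of 0.05. The fit was checked on simulated data for KO against WT in untransformed lines. It called 8% of genes set at 1.5-fold, 40% at 2-fold, 76% at 4-fold, 48% at 0.5-fold and 0.014% of unchanged genes. A difference of such a size that did not pass is thus not shown to be absent. Only 50 genes were set at each fold beside 14312 unchanged, whereas 2211 genes were called in the data. The Benjamini-Hochberg cut-off depends on the share of changed genes, so these percentages need not hold for the data. Ratios and sums of TPM were compared by exact permutation (scipy) and adjusted over 28 tests. Alternatives used limma 3.58.1, DESeq2 1.42.0, other scalings, filters, terms and subsets. The 5 members are named throughout. From each list up to 3 genes with the smallest adjusted p were eligible, and 3 near profiles were taken per member (mean CPM of 5 or more). Lrmda, Myc, Lhx2 and markers of cell types were named beside these. Members and lists were chosen with earlier results of these data known.

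Code and letter of a description were read as naming a line within a genotype. Over the 500 most variable genes, deviations from the group mean correlated at 0.13 to 0.31 in all 6 pairs of libraries of 1 line, so lines were taken to pair the 2 states, although pairs of unlike line and number (53) ran from -0.24 to 0.29 and the estimated line correlation was 0.05. Title numbers alone (14 pairs of other lines, -0.18 to 0.16) do not.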

Additional observations from a re-analysis of the deposited data

How the results depend on the processing

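Over 27 alternatives for a genotype difference or interaction and 28 for a p210 change, none reversed a called difference of Cdk4, Cdk6, Ccnd1, Ccnd2 or Ccnd3. Cdk4 and Ccnd2 kept their p210 calls except with the libraries of 1 code alone (first code, replicates 1 and 2 of each group, or second code, replicates 3 and 4). Cdk6 in WT lines lost its p210 call in 10 of 28 alternatives and Ccnd1 in KO lines in 16 of 28. For KO against WT in untransformed lines, Cdk6 had a log2 fold change of -1.91 with the first code alone (adjusted p = 0.0382) and -2.45 with the second (adjusted p = 0.236). Ccnd1 passed with DESeq2 (2.35), limma-voom (2.65), only the groups compared (2.37) and limma-voom with the line as a random replicate block (2.63, adjusted p = 0.0142), and ranged from 2.02 to 2.86 with 1 library left out, passing without WT p210 replicate 2, KO p210 replicate 3 or KO p210 replicate 4. Ccnd2 passed with DESeq2 (0.46), limma-voom (0.48) and the random replicate block (0.48, adjusted p = 0.0465), and ranged from 0.34 to 0.55 with 1 library left out, passing without KO p210 replicate 4. Ccnd3 passed with only the groups compared (0.30, adjusted p = 0.0341). In p210 lines Cdk6 ranged from -1.28 to -0.63 and Ccnd3 from 0.36 to 0.94 with 1 library left out. Without WT untransformed replicate 3 and KO p210 replicate 2, the latter singled out by its Cdk6 value, Cdk6 was at -1.28 (adjusted p = 0.0209). The cause was not tested.

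Counts of genes called moved more. KO against WT in untransformed lines gave 2211, and 1273 with no filter, 3499 with DESeq2, 3399 with only the groups compared, 920 without the 2 libraries named, 1042 with sequencing runs as a term, 435 with the first code alone, 0 with the second (fewer samples), and 181 to 2643 with 1 library left out, with 1195 without WT untransformed replicate 3, 928 without replicate 4, 691 without KO untransformed replicate 1 and 181 without replicate 2. KO against WT in p210 lines gave 645, and 1454 with DESeq2, 386 with limma-voom, 5 with only the groups compared, 275 without the 2 libraries, 366 with the title number as a replicate block, 390 with the random replicate block, 421 with runs, 4 with the second code alone, and 285 to 736 with 1 library left out, the lowest when WT p210 replicate 1 was dropped, and 305 when KO p210 replicate 2 was. For p210 in WT lines the count of 5727 became 3652 with runs, 3725 with the first code and 1566 with the second. For p210 in KO lines the count of 5395 became 3586 with the line as a replicate block and 73 with the second code. The interaction gave 5 genes (2041 at an unadjusted p under 0.05), 3 by library size, 409 with DESeq2, 4 with limma-voom, 9 with the random replicate block, 32 with the first code, 0 with the 2 libraries out, the replicate block by title number or by line, the code or runs as a term or the second code, and 0 to 46 with 1 library left out. Library size alone gave 915 higher and 1657 lower genes in untransformed KO lines, against 1267 and 944, and 2516 and 3471 with p210 in WT lines, against 3173 and 2554. For p210 in KO lines it gave 2093 and 3466, against 2790 and 2605, and for KO against WT in p210 lines 69 and 722, against 128 and 517 (448 and 1006 with DESeq2).

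Of 28 balance measures 17 passed on TPM, and 0 on TMM-scaled CPM per kilobase, on CPM, with the first code alone or with any 1 library left out (0 to 0), where the smallest p rises with fewer samples. Beside the Cdk6 and Ccnd1 changes with p210 already given, the replicate block by line changed no other call of the 5 genes within a genotype. The 8 E2F target genes lower in KO p210 lines became 3 without KO p210 replicate 2 and 4 with limma-voom, alternatives chosen for this list after seeing the data, and the other counts for this list stayed within 1.5 times. At these depths Ccnd1, with the fewest counts of the 5, had the widest intervals.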
